A study of Homo sapiens with 12 samples.

Results

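The genes described here are 10 members of the Notch signalling pathway measured in human cerebral organoids (COs): the receptors *NOTCH1*, *NOTCH2* and *NOTCH3*, the ligands *DLL1*, *DLL3* and *JAG1*, the target genes *HES1*, *HES5* and *HEY1*, and *DNER*, a transmembrane protein of neurons related to the ligands. They were chosen by symbol, and all 10 were among the 10976 genes listed for each library. The organoids were grown without patterning factors from H1, an established human embryonic stem cell line, labelled WT, and from KO#2 and KO#10, both clones of H1 in which *JUN* had been targeted by CRISPR-Cas9. All lines went through the same neural differentiation and organoid induction, with no further treatment. Total RNA from 3 to 4 pooled organoids was sequenced per library, with 2 libraries per line at each of day 12 and day 24, so that each day had 2 WT and 4 KO libraries and the series had 12. The methods say in general that experiments were run in several batches, but neither they nor the labels tie the 2 libraries of a line and day to separate cultures, so the p-values measure the spread between these libraries, which may be technical.

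Notch receptors are activated by ligands of the Delta and Jagged families on a neighbouring cell. Gamma-secretase then releases the intracellular domain of the receptor, which enters the nucleus, joins the DNA-binding protein RBPJ and turns on genes of the HES and HEY repressors. In the developing cortex this circuit keeps radial glia, the neural progenitors, dividing: HES1 and HES5 hold proneural genes low, and cells that escape the block express Delta ligands and become neurons.

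The upstream sequences of both HES targets are shown because they hold copies of the letters of the RBPJ motif. RefSeq promoters (build GRCh38.p14, 250 bases before the annotated start) were found for 6 of the 10 genes, namely *NOTCH1*, *NOTCH2*, *NOTCH3*, *JAG1*, *HES1* and *HES5*. *DLL1*, *DLL3*, *HEY1* and *DNER* had no entry. The motif TGGGAA, searched on both strands, is in capitals, written as TTCCCA where it lies on the opposite strand.
HES1 (chr3:194135898-194136147, plus strand): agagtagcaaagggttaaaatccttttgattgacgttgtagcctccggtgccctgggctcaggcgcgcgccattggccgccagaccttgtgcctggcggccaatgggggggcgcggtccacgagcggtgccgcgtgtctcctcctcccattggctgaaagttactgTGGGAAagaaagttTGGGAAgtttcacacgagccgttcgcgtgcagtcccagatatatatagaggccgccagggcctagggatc
HES5 (chr1:2530264-2530513, minus strand): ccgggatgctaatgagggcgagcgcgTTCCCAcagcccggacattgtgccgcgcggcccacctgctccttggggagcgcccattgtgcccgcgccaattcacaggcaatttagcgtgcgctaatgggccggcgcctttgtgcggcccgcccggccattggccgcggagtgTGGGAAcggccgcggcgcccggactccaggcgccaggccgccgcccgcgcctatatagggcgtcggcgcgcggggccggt
The *HES1* promoter held 2 copies on its own strand, whose first bases lay 84 and 70 bases before the start. In the *HES5* promoter 1 copy lay 80 bases before the start on its own strand and the other at 224 bases on the opposite strand. Of 35116 promoters of this length, 20.8% held at least 1 copy and 2.9% held 2 or more, and the other 4 promoters of the set held none. The motif of AP-1, the factor that contains c-JUN, was searched as TGANTCA on both strands and occurred in 6.57% of all promoters and in 0 of these 6. The N box CACNAG, a motif bound by HES repressors, was found in 32% of all promoters, with 3 copies in that of *HES1* and 1 in that of *NOTCH3*. These matches are descriptions of letters in a window and say nothing of whether a factor binds there.

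The deposited values were whole numbers on a normalised scale, called scores here, with the same median of 17 and the same highest value of 5585 in every library, so the sequencing depth behind them was unknown. Column totals ranged from 473637 to 483149. *JUN* itself had higher, not lower, scores where the label was KO. At day 12 it scored 4 and 8 in WT against 13 to 19 in the clones, and at day 24 13 and 15 against 29 to 39, where the log2 difference was 1.25 ± 0.17 (SE) with an adjusted p of 0.0184 by limma. The level of the transcript therefore gave no check of the labels, and every WT and KO below means a library so labelled. At day 24, KO#10 replicate 1 stood apart from the other 3 KO libraries. The summed score of 9 mural and mesenchymal markers was 2964 in it, 149 to 194 in the other KO libraries and 2217 to 2595 in WT, and the summed score of the endoderm markers was 984, 1 to 57 and 5935 to 5964. *AFP* made up most of the high endoderm sums, at 5585, the highest listed value, in both WT libraries and 902 in KO#10 replicate 1. Values without this library are given beside the day 24 results. *SOX2*, *NES* and *PAX6*, the defining neural progenitor markers, were present in all 12 libraries.

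The first comparison asked whether organoids of the *JUN*-edited clones differed from WT organoids in Notch genes at day 12, an early neuroepithelial stage. The ligands *JAG1* and *DLL1* and the target *HES5* had higher scores in all 4 KO libraries than in both WT libraries, by 0.76 to 1.15 on the log2 scale, and the receptors differed less. None of these differences passed the test over all genes when libraries were compared without regard to their replicate number. Differences are log2 differences of score + 1, KO minus WT, from limma, with Benjamini-Hochberg adjustment over all genes tested, and calls needed both an adjusted p under 0.05 and a change of 2-fold or more.

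Of the receptors, *NOTCH1* (ENSG00000148400, chromosome 9, 136494433 to 136546048, minus strand) scored 30 in both WT libraries, 43 and 35 for KO#2 and 41 and 33 for KO#10. Every KO library lay above WT, with a log2 difference of 0.32 ± 0.15 (SE) and an adjusted p of 0.489. *NOTCH2* (ENSG00000134250, chromosome 1, 119911553 to 120100779, minus strand) scored 47 and 52 in WT, 48 and 56 for KO#2 and 59 and 53 for KO#10, and the groups overlapped (0.12 ± 0.14, adjusted p = 0.827). Its reads can be shared with the near-identical NOTCH2NL genes, so its level is uncertain. *NOTCH3* (ENSG00000074181, chromosome 19, 15159038 to 15200995, minus strand) was at 46 and 41 in WT, 50 and 49 for KO#2 and 46 and 50 for KO#10, which again overlapped (0.16 ± 0.13, adjusted p = 0.706).

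Of the ligands, *JAG1* (ENSG00000101384, chromosome 20, 10637684 to 10673999, minus strand) scored 31 and 35 in WT, 104 and 75 for KO#2 and 61 and 64 for KO#10. The lowest KO library was well above the highest WT library, and the log2 difference was 1.15 ± 0.22 with an adjusted p of 0.128. *DLL1* (ENSG00000198719, chromosome 6, 170282206 to 170306565, minus strand), the Delta ligand of cells leaving the progenitor state, scored 31 in both WT libraries, 60 and 45 for KO#2 and 60 and 49 for KO#10. Its log2 difference was 0.76 ± 0.16, with an adjusted p of 0.145. *DLL3* (ENSG00000090932, chromosome 19, 39498895 to 39508481, plus strand), a Delta protein that acts on Notch within the same cell, was at 1 to 4 in all 6 libraries and was too low to be tested.

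Among the targets, *HES5* (ENSG00000197921, chromosome 1, 2528745 to 2530263, minus strand) scored 55 and 82 in WT, 192 and 149 for KO#2 and 136 and 130 for KO#10. All 4 KO libraries were above both WT libraries, with a log2 difference of 1.15 ± 0.22 and an adjusted p of 0.127. *HES1* (ENSG00000114315, chromosome 3, 194136148 to 194138732, plus strand) did not share this pattern. It scored 17 and 34 in WT, 20 and 28 for KO#2 and 20 and 29 for KO#10, the first library of each line being the lower, and the log2 difference was -0.01 ± 0.28 (adjusted p = 0.996). *HEY1* (ENSG00000164683, chromosome 8, 79762371 to 79767857, minus strand) scored 1 to 8 and *DNER* (ENSG00000187957, chromosome 2, 229357629 to 229714555, minus strand) 1 to 4, and neither was tested.

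In all, 7 of the 10 genes had scores of at least 10 in 2 libraries and were tested at day 12, and 0 were called, beside 0.09% of 8885 genes called in either direction. At an unadjusted p under 0.05 with the same fold, limma gave 2 of the 7, *JAG1* and *HES5*, beside 0.9% of all genes higher. All 4 KO libraries were above both WT libraries for 4 of the 7, *NOTCH1*, *JAG1*, *DLL1* and *HES5*, and for 8.23% of all genes tested. With the replicate number as a block, which pairs the libraries of this day, limma called 36 genes higher and 35 lower against 2 and 6 without it. In that fit the adjusted p was 0.0366 for *DLL1*, which stayed under 2-fold, 0.0534 for *HES5* and 0.0566 for *JAG1*, so none of the 7 was called. The summed score of the 10 neural progenitor markers was 641 to 833 in WT and 1022 to 1364 in KO at this day, and that of the pluripotency markers 928 to 1136 and 554 to 636. Of the 9 progenitor markers tested at this day, limma called 0. The log2 difference was -0.09 for *SOX2*, 0.10 for *NES* and 0.67 for *PAX6*. It was 0.74 for *VIM* and 1.32 for *CDH2*, the highest-scoring of the list, which weigh most in the sum. The part of these markers in the Notch gene values was not tested. In bulk RNA, more cells of a type and more RNA per cell cannot be told apart.

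**Figure D1:**
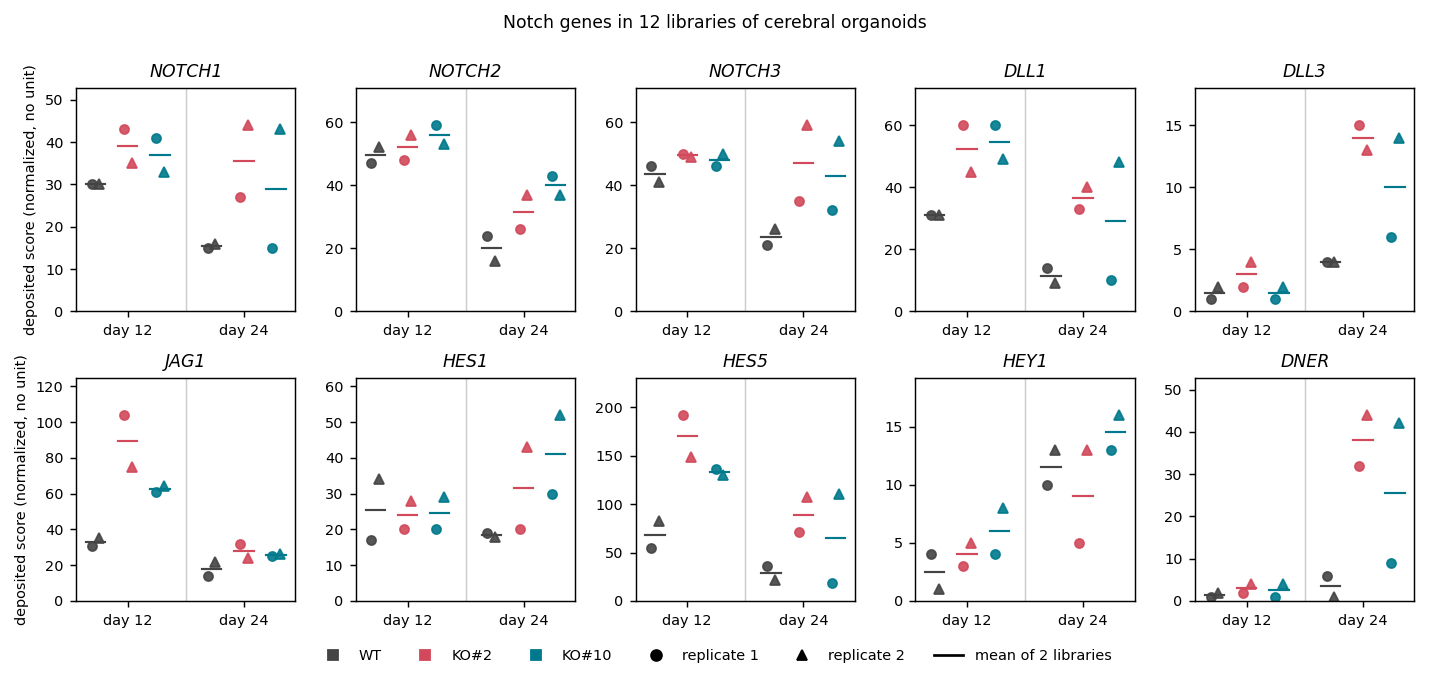
Scores of the 10 Notch genes in each of the 12 libraries, by line and day, with the score on the vertical axis, each point being 1 library and each line the mean of 2. *JAG1* and *HES5* are highest in the KO libraries of day 12, *DLL3* and *DNER* are near 0 at day 12 in every library, and KO#10 replicate 1 lies at the WT level for *NOTCH1*, *DLL1* and *HES5* at day 24.

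The same comparison at day 24, when neurons begin to appear, gave 1 called gene among the 10. *DNER* was higher in KO than in WT, and 8 of the other 9 genes had positive differences that did not pass the threshold. *DNER* and *DLL3* entered the test only through their KO libraries, being under 10 in both WT libraries, so their differences are partly a matter of selection. With every gene tested the adjusted p was 0.0497 for *DNER* and 0.0559 for *DLL3*. *DNER* scored 6 and 1 in WT, 32 and 44 for KO#2 and 9 and 42 for KO#10. All KO libraries were above WT, though KO#10 replicate 1 only just, and the log2 difference was 2.92 ± 0.72 with an adjusted p of 0.0415. The call rested on each of 5 libraries: the adjusted p was 0.0777 without WT replicate 1, 0.319 without WT replicate 2, 0.0914 and 0.108 without either library of KO#2, and 0.105 without KO#10 replicate 2. Most calls over the whole table were lost in these fits too. Genes called higher went from 392 to 12, 1, 145, 5 and 6, in the same order. The adjusted p of *DNER* was 0.0579 with the replicate number as a block and 0.0533 with the clones as separate groups, so the call was also lost in both fits.

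*NOTCH1* scored 15 and 16 in WT, 27 and 44 for KO#2 and 15 and 43 for KO#10, so that 3 KO libraries were above WT and KO#10 replicate 1 was level with it (0.90 ± 0.41, adjusted p = 0.156). *NOTCH2* scored 24 and 16 in WT, 26 and 37 for KO#2 and 43 and 37 for KO#10, and *NOTCH3* 21 and 26, 35 and 59, and 32 and 54. Both were higher in all 4 KO libraries than in WT, by 0.81 ± 0.24 (adjusted p = 0.0594) and 0.87 ± 0.28 (adjusted p = 0.07) on the log2 scale.

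*DLL1* was at 14 and 9 in WT, 33 and 40 for KO#2 and 10 and 48 for KO#10. Its log2 difference of 1.27 had a 95% interval from -0.09 to 2.62 (adjusted p = 0.152), with KO#10 replicate 1 at the WT level. *DLL3* scored 4 in both WT libraries, 15 and 13 for KO#2 and 6 and 14 for KO#10, all KO libraries being higher (1.31 ± 0.36, adjusted p = 0.0522). The WT scores of *JAG1*, 14 and 22, were below those of KO#2 (32 and 24) and KO#10 (25 and 26), and its difference was 0.57 ± 0.21 (adjusted p = 0.0945).

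*HES5* scored 36 and 22 in WT, 71 and 107 for KO#2 and 19 and 110 for KO#10. The lowest value of the day was thus in a KO library, and the log2 difference of 1.14 had an interval from -0.47 to 2.75 (adjusted p = 0.254). *HES1* scored 19 and 18 in WT, 20 and 43 for KO#2 and 30 and 52 for KO#10, without overlap (0.85 ± 0.35, adjusted p = 0.125). *HEY1*, a HES-related repressor, scored 10 and 13, 5 and 13, and 13 and 16, and was the only one of the 10 with a negative difference (-0.06, interval from -1.04 to 0.91, adjusted p = 0.921).

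Over the 10 genes, all tested at this day, 1 was called higher and 0 lower. Over all 9289 genes tested, limma called 4.22% higher and 3.79% lower, and at an unadjusted p with the same fold 2 of the 10 genes were higher, beside 6.2% of all genes. All KO libraries were above both WT libraries for 6 of the 10, against 22.2% of all genes. The 6 were *JAG1*, *HES1*, *NOTCH2*, *NOTCH3* and the 2 genes admitted only through their KO libraries, *DNER* and *DLL3*. With these 2 included, the median log2 difference was 0.88 over the 10 genes, with 9 positive. It was 0.01 over all genes, with 50.45% positive.

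Without KO#10 replicate 1, 6 of the 10 genes were called higher in KO, against 7.86% of 9180 genes. These were *NOTCH1* (log2 difference 1.21, adjusted p = 0.0163), *NOTCH3* (1.01, 0.0312), *DLL1* (1.74, 0.00733), *DLL3* (1.58, 0.00421), *HES5* (1.71, 0.011) and *DNER* (3.42, 0.00894). *NOTCH2* (0.72, 0.0686), *JAG1* (0.60, 0.0943), *HES1* (0.91, 0.129) and *HEY1* (-0.14, 0.832) were not. *DLL3* and *DNER* again entered the test only through their KO libraries, so the count of 6 is partly a matter of selection. The genes called higher over the whole table rose from 392 to 722 when this library was left out. Without any other single library 0 of the 10 were called, but calls over the whole table fell too. Genes called higher were then 12 without WT replicate 1 and 1 without WT replicate 2. They were 145 and 5 without KO#2 replicate 1 or 2, and 6 without KO#10 replicate 2. The set that passed the threshold therefore depended on the libraries kept. The mesenchymal and endodermal marker sums of KO#10 replicate 1 are given above, and their part in the result was not tested.

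**Figure D2:**
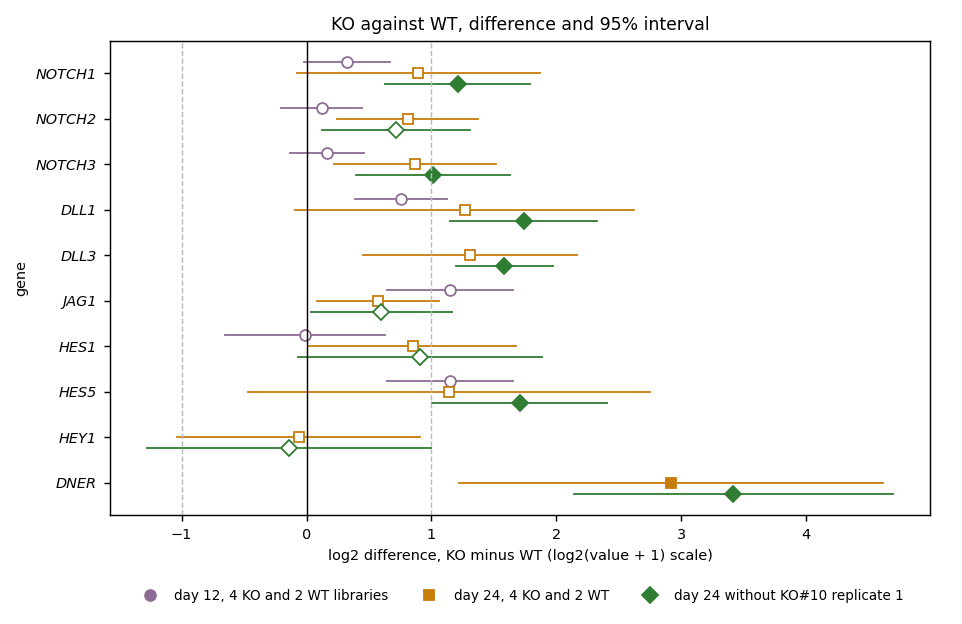
Log2 difference between KO and WT libraries for each gene at day 12 (circles), day 24 (squares) and day 24 without KO#10 replicate 1 (diamonds), on a horizontal axis of log2 of score + 1, with bars for the 95% interval from limma; filled symbols were called and open symbols were not, and dashed lines mark 2-fold. No circle and only the *DNER* square is filled, 6 of the 10 diamonds are, and the widest squares' intervals belong to *DNER*, *HES5* and *DLL1*.

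The second comparison followed the genes from day 12 to day 24 within each genotype, in 1 limma fit over the 12 libraries. In WT, *NOTCH2* fell and *HEY1* rose. In KO, *DLL3*, *DNER* and *HEY1* rose while *JAG1* and *HES5* fell. The receptors and *DLL1* had negative differences in both genotypes.

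In WT, *NOTCH2* went from 47 and 52 to 24 and 16, a log2 change of -1.29 ± 0.23 (adjusted p = 0.00249). *HEY1* went from 4 and 1 to 10 and 13 (1.97 ± 0.54, adjusted p = 0.0174), starting from scores so low that the added 1 of the log scale lowers its fold, and it too reached 10 only at day 24 (adjusted p = 0.0194 with every gene tested). Its adjusted p was 0.128, 0.0511 and 0.104 when WT day 12 replicate 2, day 24 replicate 1 or day 24 replicate 2 was left out. *NOTCH3* and *JAG1* both changed by -0.87, with adjusted p of 0.0248 and 0.0262, but under 2-fold. *NOTCH1* (-0.91, adjusted p = 0.0871), *DLL1* (-1.39, 0.0614) and *HES5* (-1.23, 0.154) were lower in both day 24 libraries than in both day 12 libraries without passing, while *HES1* (-0.36, 0.506) and *DNER* (0.61, 0.556) overlapped and *DLL3* (1.03, 0.133) was higher at day 24. With 2 libraries against 2, such separation was common: 31.6% of all genes were lower and 32.1% higher in both day 24 libraries, against 6 and 2 of the 10. The 2 called genes, 1 in each direction, stood beside 7.19% of 9952 genes called higher and 7.88% called lower.

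In KO, *JAG1* scored between 61 and 104 at day 12 and between 24 and 32 at day 24, a log2 change of -1.45 ± 0.18 (adjusted p = 0.000166). *DLL3* scored at most 4 at day 12 and between 6 and 15 at day 24 (2.01 ± 0.35, adjusted p = 0.00113) and *DNER* at most 4 and between 9 and 44 (3.01 ± 0.52, adjusted p = 0.00111). Both had scores of 10 or more only in KO libraries of day 24 and so entered the test through the group where they were high; with every gene tested their adjusted p was 0.00085 and 0.00137. The days did not overlap for 2 of the 10 genes upward, *DLL3* and *DNER*, beside 16% of all genes, and for 3 downward, *JAG1*, *HES5* and *NOTCH2*, beside 15.6%. *HES5* went from a range of 130 to 192 to one of 19 to 110 (-1.23 ± 0.44, adjusted p = 0.0442), and its change was -0.67 without KO#10 day 24 replicate 1 (adjusted p = 0.037, under 2-fold). *HEY1* scored between 3 and 8 at day 12 and between 5 and 16 at day 24, with overlapping days (1.05 ± 0.38, adjusted p = 0.0446). The calls of *HES5* and *HEY1* were fragile. For *HES5* the adjusted p was 0.106, 0.0777, 0.0736, 0.0608 and 0.0624 without KO#2 day 12 replicate 1 or 2, KO#10 day 12 replicate 1 or 2, or KO#2 day 24 replicate 1. For *HEY1* it was 0.118, 0.074 and 0.0989 without KO#2 day 12 replicate 1 or 2 or KO#10 day 12 replicate 1, and 0.101, 0.0877 and 0.123 without KO#2 day 24 replicate 2 or KO#10 day 24 replicate 1 or 2. With a pseudocount of 0.1 in place of 1 the *HEY1* call was lost as well (1.19, adjusted p = 0.0613), and that of *HES5* was lost without a filter (0.05) or a variance trend (0.0547). *NOTCH2* changed by -0.60 (adjusted p = 0.0128), under 2-fold, and *NOTCH1* (-0.34, 0.335), *NOTCH3* (-0.16, 0.503), *DLL1* (-0.88, 0.0759) and *HES1* (0.50, 0.178) did not pass. Without KO#10 day 24 replicate 1 the log2 change was -0.02 for *NOTCH1*, -0.02 for *NOTCH3*, -0.40 for *DLL1*, -0.69 for *NOTCH2* and 0.56 for *HES1*, while *JAG1* (-1.42), *DLL3* (2.28) and *DNER* (3.51) were still called. Thus 3 of the 10 were called higher and 2 lower, beside 5.89% and 5.58% of all genes.

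**Figure D3:**
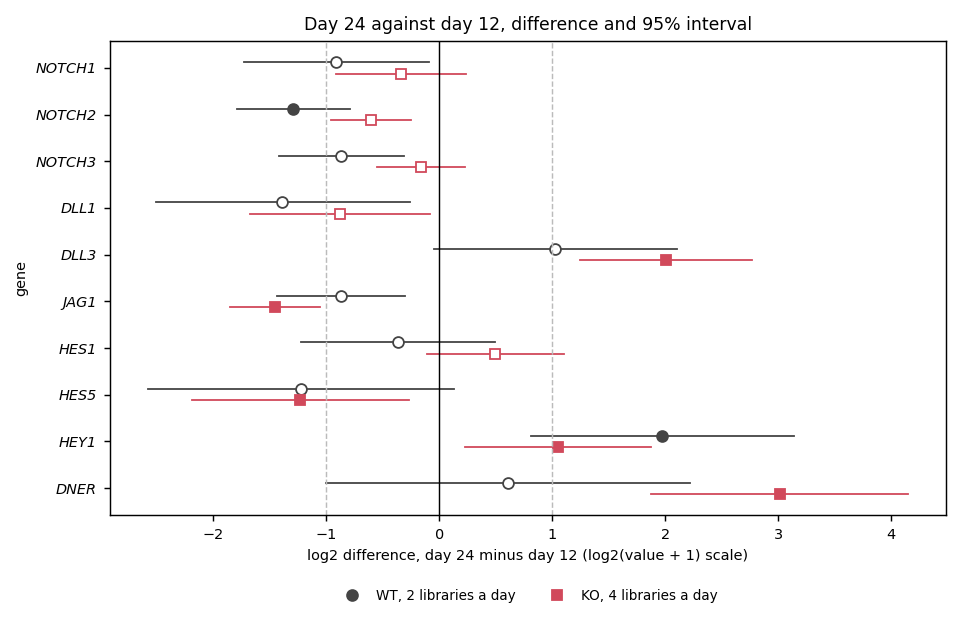
Log2 change from day 12 to day 24 for each gene in WT and in KO libraries (horizontal axis, log2 of score + 1), with 95% intervals from limma; filled symbols were called, open symbols were not, and dashed lines mark 2-fold. *JAG1* and *HES5* fall and *DLL3*, *DNER* and *HEY1* rise in KO, while *NOTCH2* falls and *HEY1* rises in WT.

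The test of the difference between these day changes, the genotype-by-day interaction, called 0 of the 10 genes by limma, beside 1.31% of 9952 genes, and 1 at an unadjusted p with the same fold, *DNER*, beside 4.51% of all genes higher. Its interaction was 2.40 ± 0.91 on the log2 scale with an adjusted p of 0.158, and 2.90 with an adjusted p of 0.0228 without KO#10 day 24 replicate 1. The changes called in one genotype and not in the other were therefore not shown to differ between genotypes with all libraries. For *NOTCH2* the interaction was 0.69 (adjusted p = 0.184), for *NOTCH3* 0.71 (0.214), for *JAG1* -0.58 (0.315), for *HEY1* -0.92 (0.45) and for *HES5* -0.003 (0.999), the *HES5* change being -1.23 in both genotypes. That equality did not hold without KO#10 day 24 replicate 1, when the interaction of *HES5* was 0.56 (adjusted p = 0.356) and that of *DLL1*, 0.51 with all libraries (0.691), was 0.98 (0.0465, under 2-fold). Without it the interaction of *NOTCH1* went from 0.57 (0.51) to 0.89 (0.0592).

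The clones were set against each other as a check on line differences. At neither day was any gene called between KO#10 and KO#2 (0% of 9952 genes, by limma), with 9 genes at day 12 and 127 at day 24 at an unadjusted p under 0.05 and at least 2-fold. At day 24 the differences of the Notch genes, KO#10 minus KO#2, ran from -0.90 for *HES5* to 0.75 for *HEY1*. The 2 libraries of KO#10 were far apart at this day, at 19 and 110 for *HES5*, 10 and 48 for *DLL1* and 9 and 42 for *DNER*, whereas those of KO#2 were at 71 and 107, 33 and 40, and 32 and 44. With KO#10 replicate 2 left out, so that replicate 1 alone stood for the clone and was taken to vary like the other groups, *DLL1* (-1.76, adjusted p = 0.0341) and *HES5* (-2.14, adjusted p = 0.0396) were called lower in KO#10, beside 0.263% of 9899 genes.

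The wider pathway was read from a list of 58 other genes, of which 46 were among those measured. *NOTCH4*, *JAG2*, *DLK2*, *MFNG*, *NEURL1*, *NEURL1B*, *DTX3L*, *MAML2*, *HES2*, *HES7*, *HEY2* and *HEYL* were not analysed here. At day 12, 0 of 41 tested were called by limma, and their median log2 difference was 0.13. At day 24, 2 of 39 were called higher and 1 lower, close to the 4.22% and 3.79% of all genes, and the median was 0.18. *HES6*, a HES relative that promotes neuronal differentiation, scored 15 and 13 in WT, 50 and 50 for KO#2 and 30 and 55 for KO#10 (1.62, adjusted p = 0.0196). *MIB1*, the ubiquitin ligase that makes ligands active by endocytosis, scored 41 and 35, 72 and 88, and 63 and 90 (1.01, adjusted p = 0.0233). *DLK1*, a Delta-like protein that lacks the receptor-binding region of the Delta ligands, scored 164 and 104, 20 and 17, and 37 and 6 (-2.89, adjusted p = 0.0301), after values of 369 to 3043 at day 12. At day 24 every KO library was above both WT libraries for *HES6* and *MIB1*, as for 22.2% of all genes. For *DLK1* every KO library was below both, as for 21.8%. These 3 were named because they were called, so their separation was partly fixed in advance. Without KO#10 replicate 1, 7 of 39 were called higher, beside 7.86% of all genes.

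From day 12 to day 24, 0 of 42 pathway genes rose and 4 fell in WT, and 2 rose and 4 fell in KO. Over all genes, 7.19% rose and 7.88% fell in WT, and 5.89% rose and 5.58% fell in KO. *LFNG*, a glycosyltransferase that modifies Notch receptors, fell in both, with log2 changes of -1.63 in WT and -1.48 in KO, as did the corepressor *TLE4* (-1.64 and -1.66). *DTX4*, a ubiquitin ligase, fell by 1.17 in WT, and *KAT2B*, a histone acetyltransferase of the Notch complex, fell by 1.32. In KO, *HES6* rose by 2.15 and the corepressor *TLE1* by 1.45, whereas *DLK1* fell by 5.85. *HES3*, a repressor of early neural progenitors, fell by 1.90 on the log2(score + 1) scale in KO, from scores of only 0 to 11 at day 12, against 12 and 20 in WT. It was listed at 0 in all 4 day 24 KO libraries, against 9 and 16 in WT, and was too low to be tested between genotypes at that day. The interaction called 0 of 42 by limma.

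**Figure D4:**
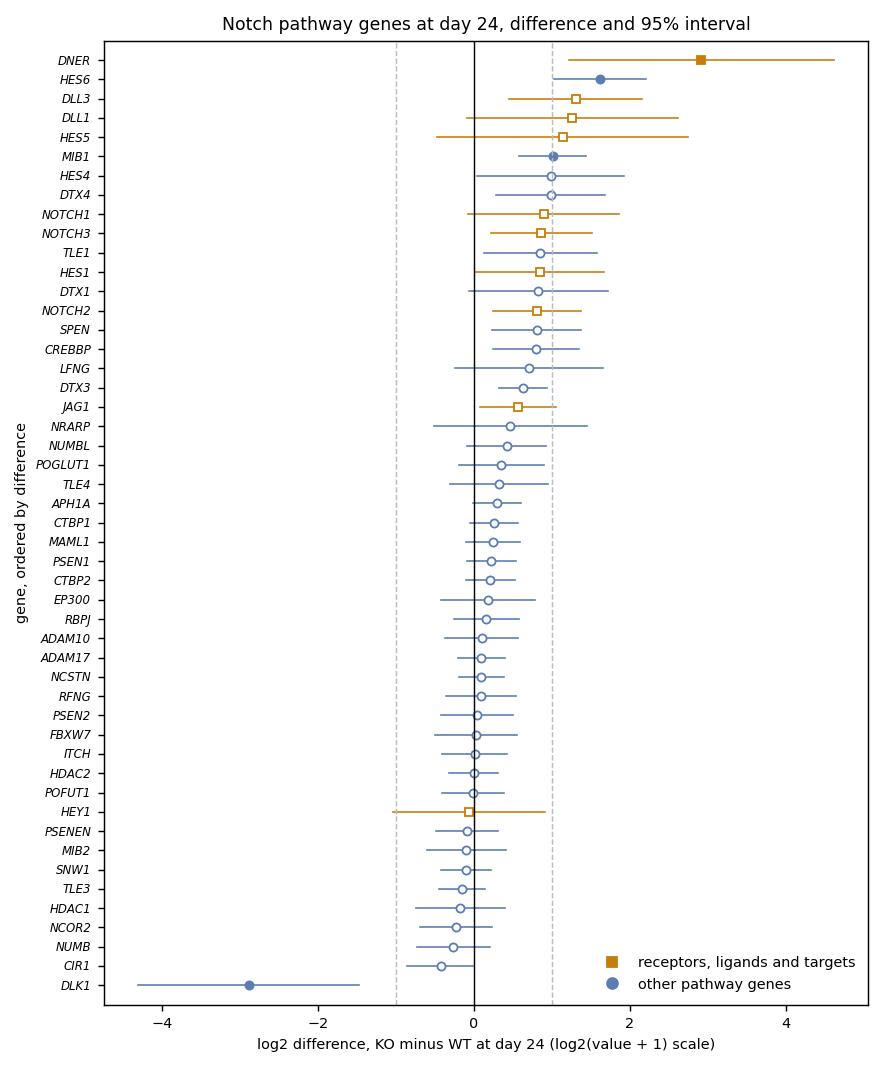
Log2 difference between KO and WT at day 24 (log2 of score + 1) for the 10 Notch genes (squares) and the 39 other pathway genes tested (circles), ordered by difference, with 95% intervals from limma; filled symbols were called and open symbols were not, and dashed lines mark 2-fold. *DNER*, *HES6* and *MIB1* are filled to the right and *DLK1* to the left, and 9 of the 10 squares lie right of 0.

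The proneural genes that HES factors keep low were read beside the targets. Of 10 listed, 7 were measured and 5 were tested at day 24. All 5 were under 10 in both WT libraries and entered the test only through KO libraries, so their differences are partly a matter of selection. Of these, 1 was called higher by limma, beside 4.22% of all genes. This was *INSM1*, a transcription factor of newborn neurons, which scored 2 and 1 in WT, 13 and 10 for KO#2 and 5 and 10 for KO#10 (2.04, adjusted p = 0.0309). *NEUROG2*, which drives cortical progenitors into neuronal fate, was listed at 0 in both WT libraries and scored 12 and 32 in KO#2 and 1 and 44 in KO#10 (adjusted p = 0.0672). The library with 1 for *NEUROG2*, KO#10 replicate 1, was also the one with the lowest *HES5* and *NOTCH1* of the KO libraries.

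The cell type markers moved with genotype at day 24, when limma called 4.22% of all 9289 genes tested higher and 3.79% lower. Of 10 progenitor markers 3 were called higher in KO and of 10 neuron markers 4, with progenitor sums of 581 to 827 in WT and 1258 to 1557 in KO and neuron sums of 183 to 349 and 433 to 2082, the 433 being KO#10 replicate 1. All 7 pluripotency markers tested were called lower, with sums of 491 to 937 in WT and 57 to 87 in KO, as were all 7 of the non-neural epithelium (678 to 909 and 43 to 251). Of the 8 endothelial markers only 2 were measured, with sums of 51 to 54 in WT and 10 to 29 in KO, and both were called lower; *PECAM1* and *CDH5* were not analysed here. Of the markers tested, 2 of 4 for endoderm, 1 of 8 for mural cells and mesenchyme and 1 of 2 for choroid plexus were also called lower. Since Notch receptors and *JAG1* are also used by mesenchymal and vascular cells, these sums are given beside the Notch values, and their part in them was not tested.

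**Figure D5:**
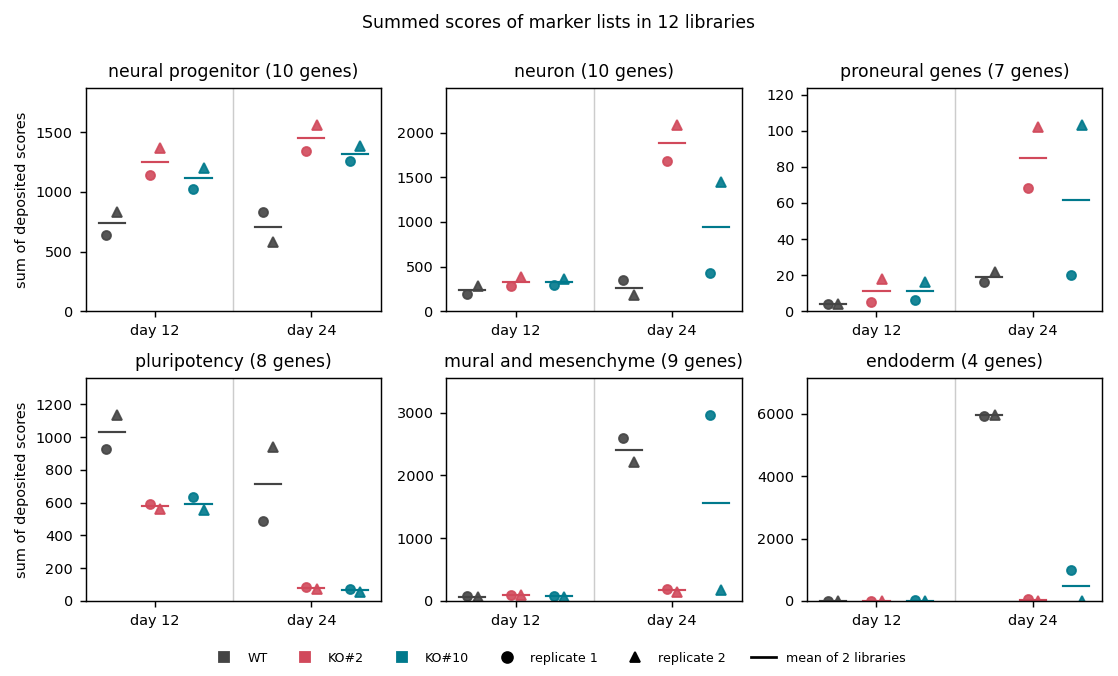
Summed scores of 5 marker lists and of the proneural genes in each library, by line and day (vertical axes from 0), each point being 1 library and each line the mean of 2. KO#10 replicate 1 at day 24 lies with WT in the mural and mesenchymal list, between WT and KO in the endoderm list, and lowest of the day 24 KO libraries in the neuron and proneural lists.

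The measured genes whose pattern over the 12 libraries was most like a Notch gene were found as the mean absolute difference in log2(score + 1), each gene first centred on its own mean, over 9951 other genes. These libraries share lines and days, so likeness is a description. For *NOTCH1* the nearest were *SOGA1* (0.105), *VANGL2* (0.125), a planar polarity protein, and *FOXK1* (0.131), and *NOTCH3* ranked 6. For *DLL1* they were *CELSR2* (0.203), an atypical cadherin, *HES5* (0.211) and *NUCKS1* (0.255), with *NOTCH1* at rank 17. For *HES5* they were *DLL1* (0.211), *RGMA* (0.242) and *LFNG* (0.327), with *NOTCH1* at rank 32 and *JAG1* at rank 49. Other Notch genes had later ranks: by likeness to *HES5*, *NOTCH3* ranked 239, *NOTCH2* 618, *HES1* 2737, *HEY1* 9357, *DLL3* 9547 and *DNER* 9752, and by likeness to *DLL1*, *HES1* ranked 4599 and *DNER* 9764. The measure is not scaled to the size of a gene's changes. Genes with low scores and large log2 changes, such as *DLL3* and *DNER*, can therefore rank late whatever their pattern. Ranks also depend on the gene they start from, as the distance of *HES5* and *NOTCH1* is 0.434 either way. By likeness to *NOTCH1*, *DLL1* ranked 535, *HES5* 2481 and *JAG1* 4291.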

How the data were processed

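The authors deposited 1 table per library with a whole-number score for each gene. Its normalisation is not given in the sources used here, and because the median and maximum are the same in every library the scores are not raw counts. The submitters' processing notes name bcl2fastq, Bowtie2, RSEM and the mouse build mm10, whereas gene identifiers and coordinates in the files are human: 10975 of 10976 overlap the GENCODE 29 gene of the same identifier, and coordinates are printed as the files give them. Libraries were rRNA-depleted and strand-specific.

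Scores were tested as log2(score + 1) with limma 3.58.1 (R 4.3.3, lmFit and eBayes with trend), keeping genes that scored 10 or more in 2 or more of the fitted libraries, with Benjamini-Hochberg adjustment. KO against WT was fitted within a day (2 against 4 libraries), and the day changes, their interaction and the clones over all 12. The fit was tested on generated data with known changes. Replicate numbers come from the labels. At day 12 the deviations of libraries with the same number from their line means correlated across genes (r = 0.393 for WT with KO#2, 0.376 for WT with KO#10 and 0.556 for KO#2 with KO#10), so the numbers were taken to pair libraries at that day, and no 2 libraries were copies. All 10 Notch genes are reported; other genes are those of listed pathway, proneural and marker genes that were called or define a list, *JUN*, and the 3 genes nearest to *NOTCH1*, *DLL1* and *HES5*. Genes named beyond this were chosen after their values were seen. The genes and lists were chosen with earlier results of these data known. Alternatives were other filters, pseudocounts, scaling, variance models, a replicate block, separate clones and leaving out each library. Promoter letters come from RefSeq.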

Additional observations from a re-analysis of the deposited data

Results flagged for a closer look

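*DLL3* at day 24 was flagged for 1 library that lay far from the others of its group. KO#10 replicate 1 scored 6 where the other 3 KO libraries scored 13 to 15. On the scale of log2(score + 1) the gap was 0.839 of the whole range, above Dixon's 95% critical value for 4 libraries. The ratio was taken on that scale only, so the flag holds for log2(score + 1) and not for the scores as listed. *DLL3* at day 24 was the only one of 20 groups of 4 KO libraries (10 genes at 2 days) to be flagged, and chance flags about 1 in 20. The same library had the lowest KO score for *NOTCH1*, *NOTCH3*, *DLL1*, *HES5* and *DNER* at this day, but not for *NOTCH2*, *JAG1*, *HES1* or *HEY1*.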

How the results depend on the processing

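KO against WT at day 12 called 2 genes higher and 6 lower, with 0 Notch genes. The replicate block gave 36 and 35, fits without a variance trend 13 lower, clones as separate groups 0 and 1, all 12 libraries in 1 fit 1 higher, and an unadjusted p 80 and 65 with 2 Notch genes higher. Leaving out each library gave 0 to 2 higher and 1 to 2 lower. At day 24 the 1 Notch gene called became 0 with the replicate block (*DNER*, adjusted p = 0.0579) and with clones as separate groups (0.0533), and 2 with an unadjusted p and in 1 fit of all 12 libraries, which called 589 genes higher. A filter at 20 gave 205 genes lower. Leave-one-out gave 1 to 722 genes higher, 1 to 624 lower and 0 to 6 Notch genes, the extremes being WT replicate 2 and KO#10 replicate 1. Same-numbered libraries at day 24 correlated at 0.218 (WT with KO#2), -0.0944 (WT with KO#10) and 0.328 (KO#2 with KO#10). Each value was lower than at day 12, and whether the numbers pair libraries at day 24 cannot be told from them.

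For the WT day change, a filter at 20 gave 470 genes and 0 Notch genes higher. No library scored *HEY1* at 20 or more, so that filter left it untested. An unadjusted p gave 2 Notch genes lower, and leave-one-out 384 to 696 genes higher and 423 to 815 lower, with 0 to 1 and 1 to 2 Notch genes. For the KO day change, Notch genes lower went to 1 with no filter or no trend. A filter at 20 gave 361 genes and 1 Notch gene higher, with *DLL3* and *HEY1* left untested in the same way. Leave-one-out gave 2 to 3 Notch genes higher and 1 to 3 lower. The interaction, with 45 genes higher and 85 lower, gave 28 and 55 at a filter of 20, 158 and 210 with the replicate block, 449 and 515 with 1 Notch gene at an unadjusted p, and 1 to 419 and 10 to 497 with 0 to 1 Notch genes under leave-one-out. Between clones an unadjusted p gave 4 and 5 genes at day 12 and 54 and 73 at day 24, and leave-one-out at day 24 0 to 30 and 0 to 26, with 0 to 2 Notch genes lower. The replicate block changed no other call of a Notch gene.

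Signs turned only for changes that were not called. The *HES5* interaction was 0.00542 with a pseudocount of 0.1 and -0.35 to 0.56 under leave-one-out. Under leave-one-out *HES1* ran from -0.49 to 0.47 at day 12 and from -0.84 to 0.12 for the WT day change, *HEY1* from -0.24 to 0.27 at day 24, and *DNER* from -0.29 to 1.52 for the WT day change. The cause of these shifts was not tested. Depth is unknown, so what it limits cannot be stated.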
